A study of Oryzias latipes with 18 samples.

Results

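The region around irf2bp2 on chromosome 15 of medaka (Oryzias latipes) is among the stretches of the genome with the most closely packed accessible elements. It was chosen by the number of elements it holds. The 100 kb window at irf2bp2, from 28099757 to 28199756 on the assembly ASM223467v1, was taken with 50 kb on each side, and every element with its midpoint from 28049757 to 28249756 is a member. These are 85 of the 149539 elements in the deposited list, 63 in the 100 kb core, 9 in the flank of lower coordinates and 13 in the flank of higher coordinates. Their number and spacing are therefore a description of what was chosen and not a result.

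The list comes from ATAC-seq, in which a transposase, Tn5, inserts sequencing adapters where chromatin is open. Whole embryos, offspring of the medaka strains d-rR-Tg(olvas-GFP) and Qurt kept at 28 °C, were taken at stages 11, 15, 19, 25, 29, 32, 36, 38 and 40, with 2 libraries per stage and 18 libraries in all. In d-rR-Tg(olvas-GFP) the promoter of the germ cell gene olvas drives GFP. Each element is listed with its position, a score and an integer. The score is taken as the −log10 of the MACS2 q value, since none lies below the limit of 7 that was set for peaks, and the integer (1 to 29) as the number of peaks from single stages that were merged. All stages and cell types of the embryo are pooled in these values, so no error between replicates can be given, no test between stages was possible, and the depth per library is not known. The intervals given with shares are 95% Wilson intervals and cover counting error only.

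irf2bp2 encodes a nuclear co-regulator with a zinc finger at one end and a RING finger at the other. It was first described in human cells as a partner of the repression domain of IRF2, and in mammals it is also known as a partner of VGLL4, NFAT factors and the ETO2 (CBFA2T3) corepressor. In zebrafish an irf2bp2 gene acts in the choice between the neutrophil and the macrophage fate. Accessible elements at gene ends often are promoters, and those in introns or far from genes are candidates for enhancers or silencers. Which of these a given element is cannot be read from accessibility alone.

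The elements crowded the space between genes on both sides of irf2bp2, and were sparser over most of the genes at the edges of the window. irf2bp2 itself (gene ID 101169386) is short, 3.14 kb from 28180271 to 28183414, and the RefSeq table used gives no strand. Below it, toward lower coordinates, 89.1 kb separate it from the next protein-coding gene, LOC100144382. This interval held 50 elements, or 5.61 per 10 kb. Between LOC100144382 and irf2bp2 lie a pair of overlapping lncRNA genes, LOC110016551 (21.8 kb) and LOC105355834 (1.71 kb). Above irf2bp2, 22.6 kb separate it from LOC101169311, with 17 elements by midpoint, or 7.51 per 10 kb. The genes toward the lower edge are heatr5b, whose product is known from vesicle traffic, gpatch11, a G-patch protein gene, and LOC110016550. At the upper edge lies arid4b, which encodes a chromatin protein with an ARID domain, 25.0 kb from irf2bp2. In all, 57 elements lay below irf2bp2, 3 inside it and 25 above it. The gene is not central, and more of the window lies below it than above it.

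**Figure D1:**
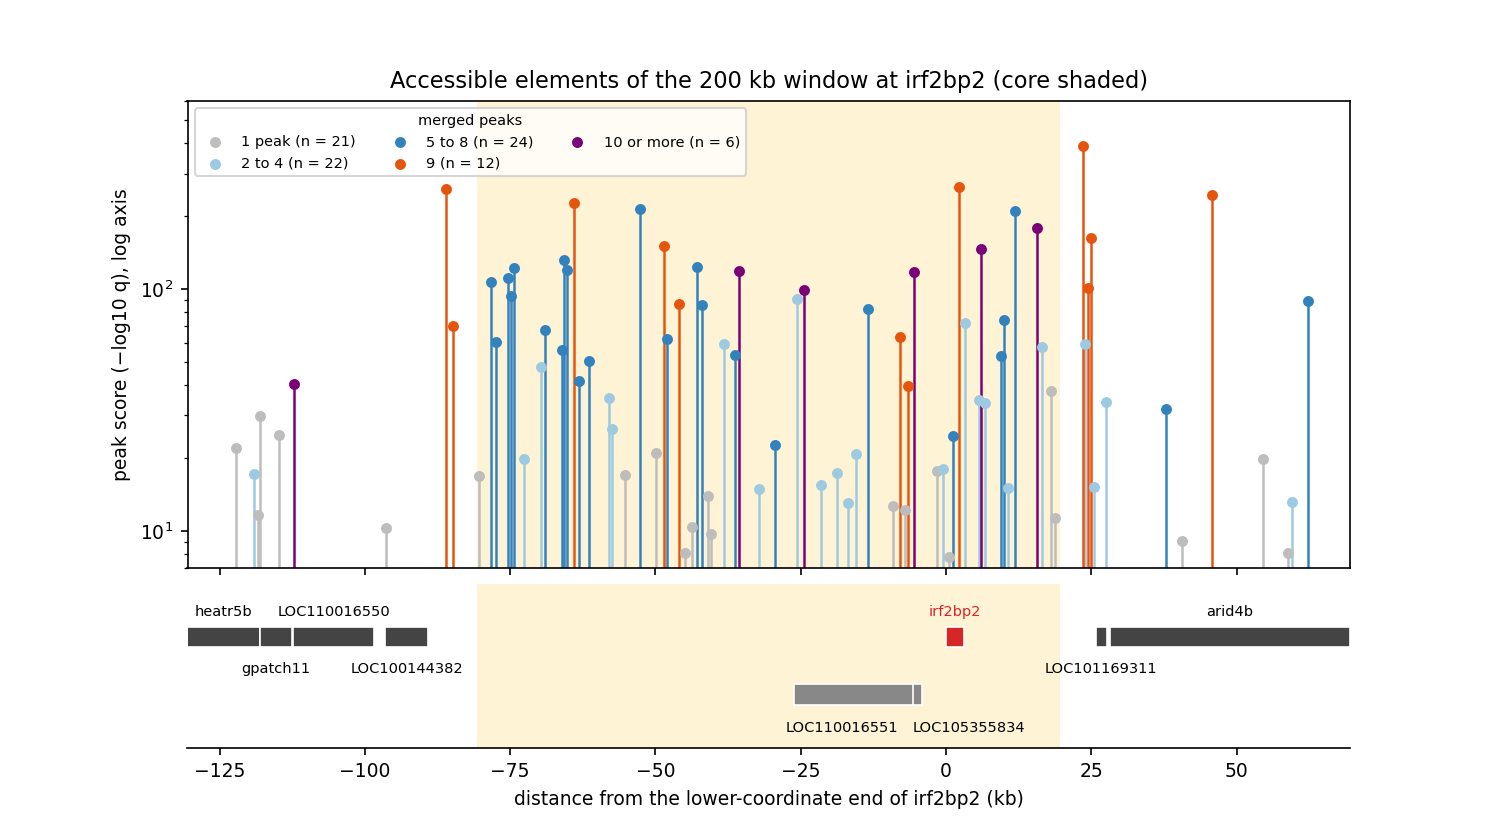
Peak score (−log10 q, log axis) of the 85 elements against the distance of their midpoint from the lower-coordinate end of irf2bp2 in kb, coloured by the number of merged peaks, with RefSeq genes underneath (irf2bp2 red, other protein-coding genes dark, lncRNA genes grey) and the 100 kb core shaded. The strongest element, with a score of 392, stands outside the core near LOC101169311, and the strongest of the core, with a score of 265, lies inside irf2bp2.

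Inside and at the ends of irf2bp2 the elements ranged from the weakest to nearly the strongest of the whole window. The element from 28182450 to 28182697, inside the gene and 841 bp from its higher-coordinate end, was 248 bp wide. Its score was 265, and it was merged from 9 peaks. Of all elements in the list 3.45% had a higher score. Elements within 1 kb of a gene end, as this one is, had a median score of 49.2 on all chromosomes. Of these, 33.2% were merged from 9 or more peaks. The next element along irf2bp2, from 28183144 to 28183918, lay across the higher-coordinate end. Its score was lower, 72.5, with 4 merged peaks and a width of 775 bp. In the middle of the gene an element of 833 bp, from 28181122 to 28181954, scored 24.6 with 7 merged peaks. The weakest member of the window, which scored 7.76 and came from a single peak, lay from 28180747 to 28180870, near the lower-coordinate end. Just outside that end were elements with scores of 18.1 (2 peaks, 0.589 kb away) and 17.8 (1 peak, 1.49 kb away). The strong accessibility of irf2bp2 was thus found toward its higher-coordinate end, and the elements at the other end were weak.

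The 22.6 kb above irf2bp2 carried strong elements at several distances from the gene. At 2.91 kb from irf2bp2 an element of 507 bp, from 28186069 to 28186575, scored 146 with 10 merged peaks, and it stood between a pair of weaker elements with scores of 34.7 and 33.8. A group of 3 elements at 6.23, 6.79 and 7.58 kb had scores of 53.0, 74.2 and 15.0. The element at 8.72 kb, from 28191955 to 28192317, reached 210 with 8 merged peaks. At 12.6 kb lay the widest element of the window, 1149 bp from 28195391 to 28196539, which also was merged from the most peaks, 13, and had a score of 179.

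Next to LOC101169311 an array of 5 elements filled 2.28 kb, from 28203524 to 28205807. It opened with the strongest element of the window, from 28203524 to 28204105, whose score of 392 was exceeded by 1.38% of all elements. This element was merged from 9 peaks. The other elements of the array had scores of 59.3, 101, 163 and 15.1 and were merged from 4, 9, 9 and 2 peaks, and gaps of 83 to 123 bp separated them. The array lies outside the 100 kb core, 20.4 to 22.2 kb from irf2bp2 and 0.423 to 2.25 kb from LOC101169311, which contains the snoRNA gene LOC111948858. It is therefore nearer to LOC101169311, whose only overlapping element had a score of 34.1.

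In the long interval below irf2bp2, no gap in the stretch free of genes exceeded 4073 bp. The 63.0 kb between LOC100144382 and LOC110016551 held 36 elements, or 5.72 per 10 kb, with a median score of 59.8 and 20.2% of the bases covered. Within the first 20 kb of the core, a stretch picked after its values were seen, 11 of 15 elements were merged from 5 to 8 peaks, 1 from 9, 2 from 2 to 4 and 1 from a single peak. Of all 85 members, which include these 15, 24 were merged from 5 to 8 peaks, and of the whole list 25.1% were. The strongest of these 15 was an element of 538 bp from 28115999 to 28116536, 64.0 kb from irf2bp2, which scored 226 with 9 merged peaks. Nearer to irf2bp2 lay an element of 749 bp from 28127220 to 28127968, at 52.7 kb, which scored 215 with 8 merged peaks. Another at 48.6 kb, from 28131423 to 28131890, scored 151 with 9. The closest pair of the whole window was also among the 15, with 77 bp between the elements ending at 28114284 and starting at 28114362. Their scores were 56.0 and 131.

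The lncRNA genes below irf2bp2 held elements as densely, but weaker ones. The 22.0 kb of LOC110016551 and LOC105355834 contained 12 elements, or 5.45 per 10 kb, with a median score of 30.2 and a range from 12.2 to 117. The highest score belonged to an element of 1053 bp from 28174239 to 28175291, merged from 10 peaks, which lies where both lncRNA genes overlap, across the lower-coordinate end of LOC105355834. Near the lower-coordinate end of LOC110016551, elements from 28154429 to 28154810 and from 28155426 to 28156249 had scores of 90.6 and 98.9, with 4 and 10 merged peaks. Next to these, 5 neighbouring elements had scores of 15.4, 17.4, 12.97, 20.8 and 82.6. The 4.07 kb between the lncRNA genes and irf2bp2 held only the elements with scores of 17.8 and 18.1 named above. The narrowest member, of 87 bp with a score of 12.2, also lay in LOC110016551.

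The genes at the edges of the window held a few elements each, most of them weak, and a pair of strong elements lay in or near them. heatr5b, gpatch11, LOC110016550 and LOC100144382 had 3, 2, 1 and 1 elements by midpoint, with scores of at most 40.6. The element with that score, from 28067760 to 28068252, lay at the end of LOC110016550 next to gpatch11 and was merged from 12 peaks. The widest gap of the window, 15531 bp, follows it. At 86.1 kb from irf2bp2 and 2.97 kb from LOC100144382, just before the core, the element from 28094042 to 28094256 scored 259 with 9 merged peaks, though it was only 215 bp wide. Per 10 kb, heatr5b had 2.42 elements inside the window, gpatch11 3.72, LOC110016550 0.717 and LOC100144382 1.35. The 41.4 kb of arid4b inside the window held 7 elements, 1.69 per 10 kb, with scores of 8.06 to 89.2 except for a single element of 246 with 9 merged peaks, from 28225807 to 28226340. At the limits of the window, the first elements inside had scores of 22.0 (28057954 to 28058241) and 89.2 (28242038 to 28242919), and the first outside had 452 (28039597 to 28039992, over the end of strn) and 428 (28251426 to 28252014, over the higher-coordinate end of arid4b and inside ggps1). Both outside elements were merged from 9 peaks.

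Counted in steps of 10 kb, no part of the core was empty. The 10 bins of the core held 4 to 9 elements each, and those of the flanks held 0 to 6. Over the 73361 tiles of 10 kb on the 24 chromosomes the mean was 1.97 elements, and 9.65% of tiles held 5 or more. Elements covered 14.4 to 33.2% of the bases in the core bins, the highest in the bin that contains irf2bp2, and 0 to 20.3% in the flanks. The bins start at the edges of the core, which was chosen by its count, so fuller bins inside it follow from that choice. On the lower side the bins next to the core held 2, 1 and 0 elements, and the one after these held 5. On the upper side the first bin still held 6, among them the array at LOC101169311, and the next held 1.

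**Figure D2:**
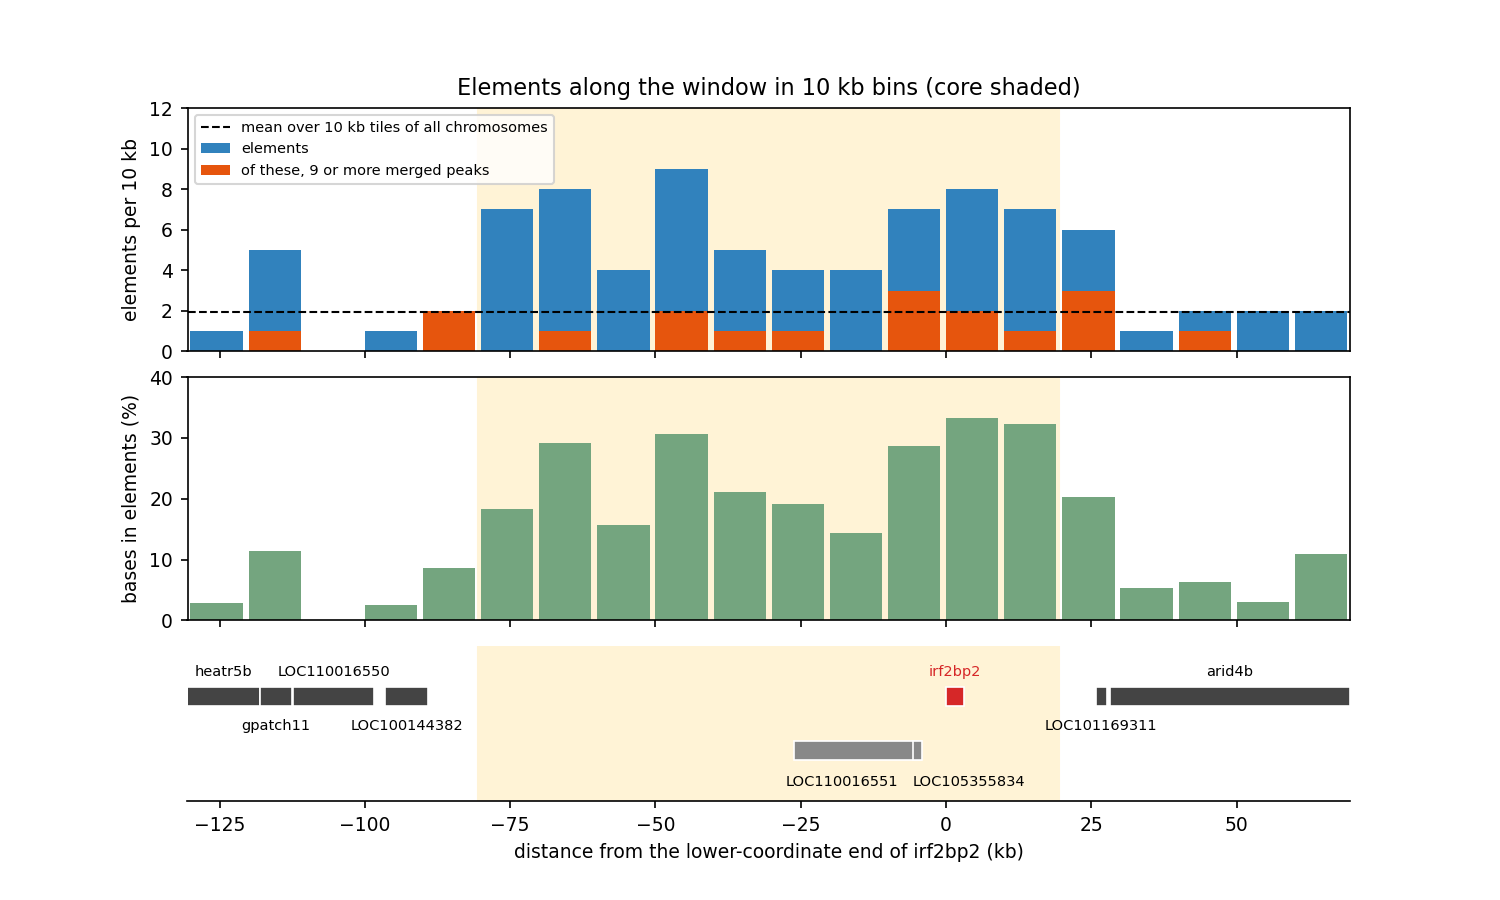
Elements per 10 kb (upper panel, those with 9 or more merged peaks in orange), the share of bases inside elements (middle panel) and RefSeq genes, against the distance from the lower-coordinate end of irf2bp2 in kb. The 10 bins of the shaded core, which was chosen by its count, hold 4 to 9 elements each. The mean over all 10 kb tiles of the chromosomes is 1.97 (dashed line).

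Strength was described by the score, which was not used to choose the window but comes from the same reads. The 85 members had a median score of 41.6 (quartiles of 17.4 and 93.5), and all elements of the list had a median of 30.8 (16.5 and 67.0). The binomial interval of the median in the window, 26.3 to 62.2, includes the value of the whole list. Scores above 100 were found in 20 members, 23.5% (15.8 to 33.6%), against a background of 15.8% in the list. The core had a median of 53.0, the lower flank 24.9 and the upper flank 34.1. Of the 10 strongest members 6 lay in the core, 3 in the upper flank and 1 in the lower flank. By place, 5 of these were distal, 2 proximal, 2 at gene ends and 1 in a gene body. Neighbouring elements share a locus and are not replicates, so these differences were not tested.

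Elements here were also wider by their median. The median width was 309 bp (quartiles of 211 and 469 bp) against 255 bp (upper quartile of 374 bp) over the list. The binomial interval of the median width in the window, 250 to 378 bp, includes the value of the whole list. Of the members 20 exceeded 500 bp, which is 23.5% (15.8 to 33.6%) against a background of 11.8%. Elements covered 31.4 kb of the 200 kb, 15.7%, and 24.3% of the core. Among 3060 tiles of 200 kb on the chromosomes with at least 20 elements, 9.12% had a higher median width than the window and 13.1% a higher median score. Of 3654 such tiles without this minimum, 33 had more elements and 6 had a larger share of bases covered, both of which follow in part from the choice of the window.

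The number of merged peaks rises with the stages at which an element was called and with the pieces it was called in, and it cannot separate these. Of the members, 18 were merged from 9 or more peaks, 21.2% (13.8 to 31.01%), against a background of 12.5%, and 6 from 10 or more, 7.06% (3.28 to 14.6%), against 2.32%. Elements from a single peak numbered 21, 24.7% (16.8 to 34.8%), close to the background of 27.7%, and their highest score was 38.0. In the core 34.9% of elements (24.3 to 47.2%) were merged from 5 to 8 peaks, in both flanks together 9.09% (2.53 to 27.8%) and in the whole list 25.1%. Exactly 9 peaks were behind 9.52% of core elements (4.44 to 19.3%), 27.3% of those in the flanks (13.2 to 48.2%) and 10.2% of the list. The intervals of core and flanks overlap in both classes, and the differences were not tested. All elements with 10 or more peaks in the core were at least 507 bp wide. Score and merged peaks rose together over the 85 members (Spearman's rho 0.83), as they did over all elements (0.80). Width and merged peaks had a rho of 0.69 in the window and 0.41 over all elements. These correlations describe values made from the same reads by the same merging.

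**Figure D3:**
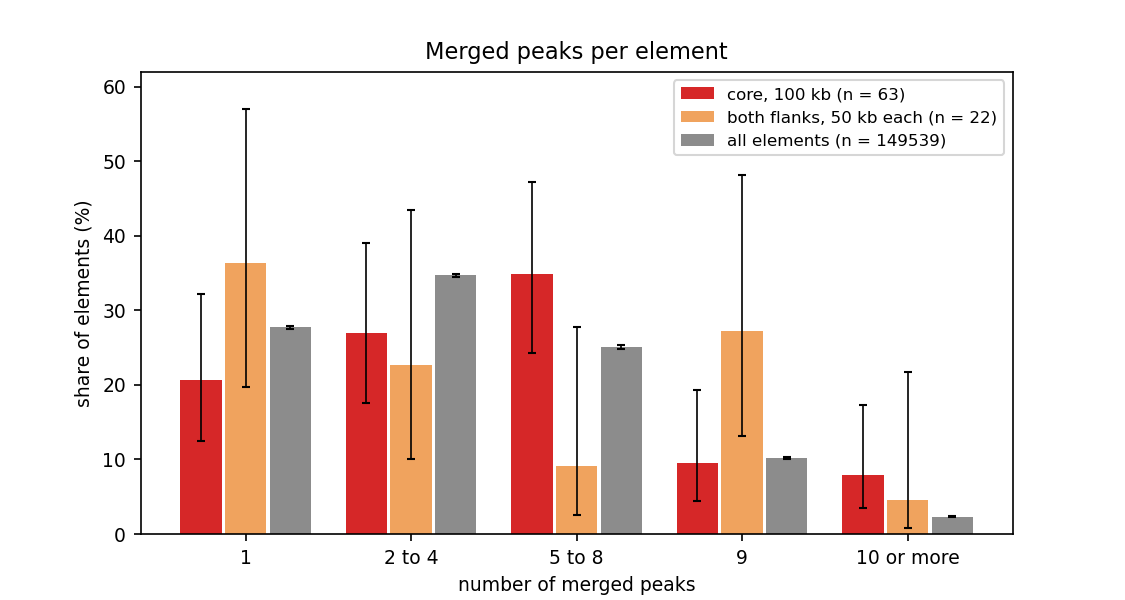
Share of elements by number of merged peaks, in the 100 kb core (63 elements), in both 50 kb flanks together (22 elements) and in the whole list, with 95% Wilson intervals as bars. In the core the class of 5 to 8 peaks is the largest with 34.9%, in the flanks it makes up 9.09% and in the whole list 25.1%.

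Many members stood in tight groups. The median gap between neighbours was 962 bp, against 2382 bp on all chromosomes, and 15 of 84 gaps were under 200 bp. When elements closer than 500 bp were taken as a group, 44 members, 51.8%, fell into 16 groups, against a background of 34.4% of elements on the chromosomes with a neighbour this close. Of these groups 9 had at least 3 elements. No background was taken for this count or for the gaps under 200 bp. Close spacing is part of what was chosen with the window. The group at irf2bp2 had 4, from 28180747 to 28183918, and left the lower-coordinate end of the gene uncovered. The core had no gap over 5 kb, its longest being 4140 bp, and the 4 gaps over 5 kb in the window lay in the flanks.

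By place, distal elements were the largest class, but the space around irf2bp2 leaves room for them. Against all RefSeq genes, 41 members (48.2%, 37.9 to 58.7%) lay more than 5 kb from any gene and are called distal, against a background of 17.3% on the chromosomes. All 41 lay in the core. A further 19 were in gene bodies (22.4%), 15 within 1 kb of a gene end (17.6%) and 10 proximal, within 5 kb of a gene (11.8%). Distal sequence made up 32.8% of the bases in the window and 60.8% of those in the core. In the core, where 65.1% of elements were distal, the density was 6.75 elements per 10 kb of distal sequence, 7.21 at gene ends, 5.14 in gene bodies and 4.96 in proximal sequence. The distal members had a median score of 57.5, and distal elements on all chromosomes had 27.9. Proximal elements also had a higher median in the window, 64.9 against 30.5. The other classes went the other way, with medians of 34.1 against 49.2 at gene ends and 20.8 against 27.5 in gene bodies. Of the 41 distal members 5 (12.2%) were merged from 9 or more peaks, against 3.89% of distal elements on all chromosomes. No interval was taken for this share, and the differences in score and in merged peaks were not tested.

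The gene to which an element is assigned depended on the lncRNA genes. irf2bp2 was the closest gene of 13 elements, with 4 each at the gene ends, proximal and distal and 1 in the gene body. Over all 26832 RefSeq genes the median was 3 such elements. By this assignment 2564 genes had more elements than irf2bp2, and 1715 had more distal ones. LOC110016551 was the closest gene of 29 elements, 17 of them distal, LOC100144382 of 19, 16 of them distal, and LOC101169311 of 10. With lncRNA and other non-coding genes left out, irf2bp2 was the closest gene of 35 elements, 26 of them distal, and LOC100144382 of 27. Assignment rests on distance alone, and the list holds no link between an element and the gene it acts on.

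Within 50 kb of irf2bp2 lay 51.5 elements, the mean of 53 around its lower-coordinate end and 50 around the other. The median over 22058 protein-coding genes was 22.5 (quartiles of 16.0 and 28.5), and 24 of these genes had more. Of all 26832 RefSeq genes 32 had more, which gives rank 33, and LOC100049394 had the most with 59.5. A high rank follows from the choice of the window by its count and is no result. The rank depended on weak and closely spaced elements. With scores of at least 20 only, irf2bp2 had 34.5 elements and rank 209, and with elements closer than 500 bp joined it had 33 and rank 225. The protein-coding genes LOC101168392, e2f2, hoxc6 and tcf7l1 had the same count of 51.5, and a further 15 genes differed by 0.5, among them thg1l. This likeness concerns a count of elements and nothing else.

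The count of elements within 50 kb was also taken for genes that act with irf2bp2 elsewhere. irf2bp2 was chosen for the density of elements around it, so its lead over these genes follows from that choice and is no result. Of 40 listed symbols of partners and relatives, 17 were found on the chromosomes. They had a median of 31 elements within 50 kb, and 16 of them exceeded the median of all genes, 22. Many of the listed genes encode TFs or corepressors. The authors report more accessible elements around regulatory genes than around other genes. Whether the 17 genes differ from regulatory genes in general was not tested. klf2, a zinc finger TF gene with roles in vessels and immune cells, had 43, and cbfa2t3, the gene of the ETO2 corepressor, had 42. nfatc3 of the NFAT family had 38.5, and irf8, which acts in macrophages, had 37. ncor1, which encodes a nuclear receptor corepressor, had 24.5. tead3 and tead4 had 33.5 each, and tead1, the third gene of DNA-binding partners of VGLL4 found, had 29.5, as did vgll4. irf2, whose product gave irf2bp2 its name, had 19.5 and was the only one of the 17 below that median. Of the 5 symbols of the IRF2BP family itself, which include variants of the name irf2bp2, only irf2bp2 was found. The search was by symbol, so family members with LOC identifiers could be missed.

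In a search by symbol, genes that neighbour IRF2BP2 in human were found beside it in medaka on the higher-coordinate side only. Of 13 such symbols 11 were found, 9 of them on chromosome 15. arid4b, ggps1, b3galnt2, gng4, lyst and nid1 followed each other from 25.0 to 172 kb above irf2bp2. tarbp1, slc35f3 and kcnk1 lay 2904 to 2973 kb below it, and rbm34 and tbce on chromosome 1. On the lower side the nearest named genes were gpatch11, heatr5b and strn, which were not among these symbols. Genes with LOC identifiers, such as LOC100144382 and LOC110016550 on that side, could be missed by such a search. The listed neighbours had 15.5 (gng4) to 33 (arid4b) elements within 50 kb. Of these, arid4b, ggps1, b3galnt2 and gng4 share part of their surroundings with irf2bp2.

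**Figure D4:**
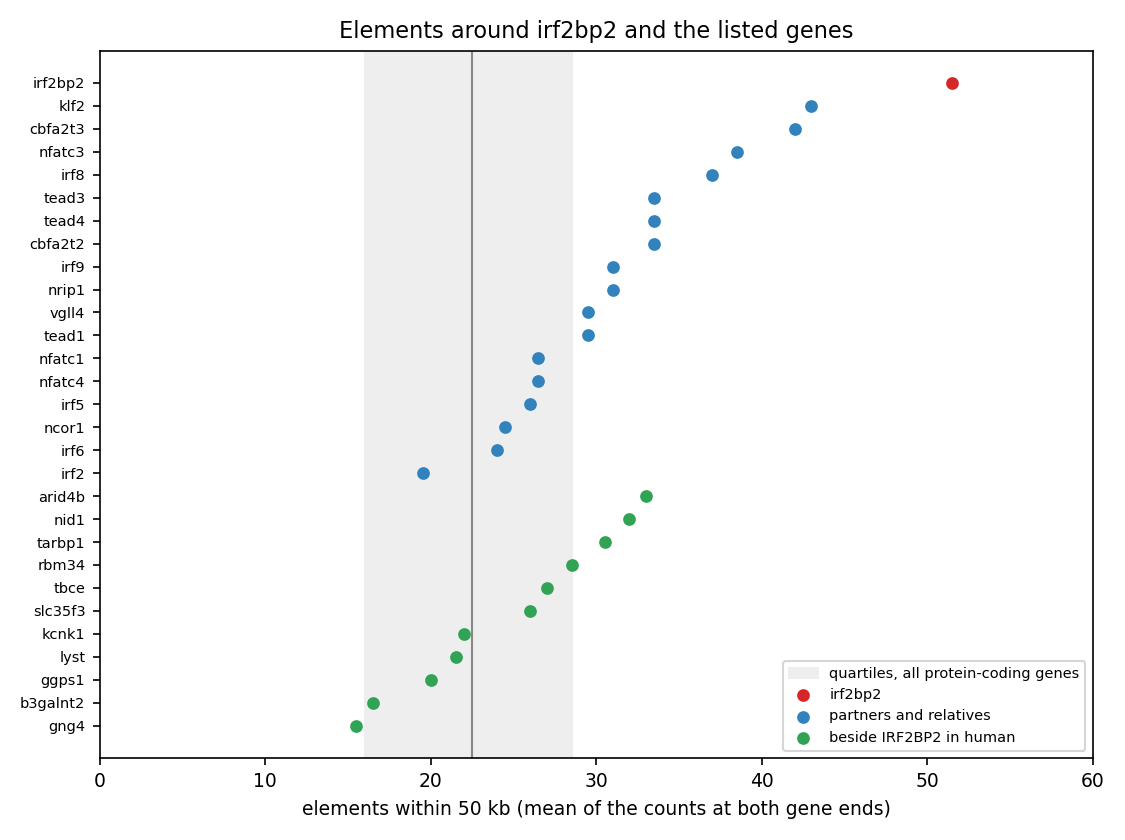
Elements within 50 kb (mean of the counts around both gene ends) for irf2bp2 (red), 17 partners and relatives (blue) and 11 genes that lie beside IRF2BP2 in human (green), with the quartiles over all protein-coding genes as a grey band and their median as a line. irf2bp2 has 51.5, the next of the listed genes, klf2, has 43, and irf2 has 19.5.

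The core at irf2bp2 was set beside the other densest windows of the genome. When 100 kb windows that start at an element were ranked by count without overlap, rere had 67 elements, meis2 had 65 and irf2bp2 had 63, as had a window on chromosome 20. Nearly all elements at rere and meis2 lay in gene bodies (94.0 and 83.1%), as at bcor (85.5%), and none or few were distal (0, 0 and 1.61%). At irf2bp2 65.1% were distal, close to the 61.9% in the window on chromosome 20, and mycn had a larger share with 85.5%. A window on chromosome 6 had 30.6%. Elements merged from 9 or more peaks made up 17.5% at irf2bp2 (10.04 to 28.6%), 21.0% at bcor (12.7 to 32.6%), 13.4% at rere (7.23 to 23.6%), 9.23% at meis2 (4.30 to 18.7%) and 6.45% at mycn (2.54 to 15.4%). These intervals overlap, the one at irf2bp2 includes the background of 12.5% in the list, and the differences were not tested. The core at irf2bp2 had the highest median width of the 10 windows, 322 bp, and the largest share of bases covered, 24.3%, with 22.1% at rere as the next. Its median score of 53.0 was below those of mycn (61.7) and bcor (57.6).

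**Figure D5:**
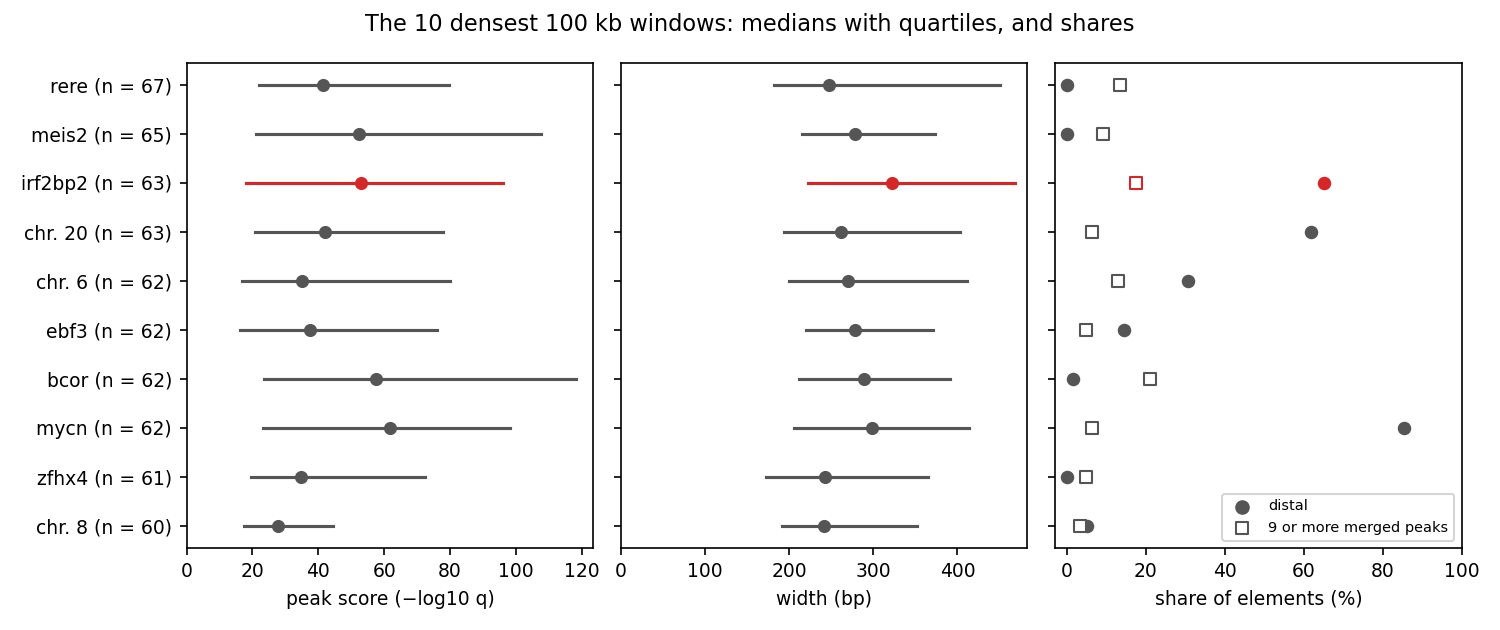
Median (point) and quartiles (line) of peak score and width, and shares of distal elements (filled circles) and of elements with 9 or more merged peaks (open squares), in the 10 densest non-overlapping 100 kb windows, ordered by their number of elements. The window at irf2bp2 (red) has the highest median width, 322 bp, and 65.1% distal elements, with mycn at 85.5%, the window on chromosome 20 at 61.9%, and rere, meis2 and bcor at 0 to 1.61%.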

How the data were processed

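The submitters' processing notes name Trimmomatic 0.36, Bowtie2 2.3.4.1 and MACS2 2.1.2, among other tools. The authors trimmed and mapped the reads, pooled the replicates, called peaks, kept those whose −log q exceeded 7 and joined the peaks of all stages into 1 list. The deposited list has no header. Its score column, used here as the −log10 q, was made by the authors in MACS2 peak calling and merging, and its last column, an integer, was used as the number of merged peaks. How a merged element got its score is not given in the sources used here. Starts were counted from 1.

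Elements were placed by midpoint against RefSeq genes of ASM223467v1. An element was within 1 kb of a gene end for 82.5% of protein-coding genes, and for 53.9% after a shift of 50 kb. Genes are named if they overlap the window, are the closest gene of a member, are the next protein-coding gene, share the count of irf2bp2, or stand in lists of family, partners and human neighbours. One gene of the partner list is not reported here, and the counts for that list leave it out. Leading genes of the other densest windows are named as labels. Elements are named if they are at irf2bp2, among the 10 strongest, the 3 widest, the 3 with most peaks, the weakest, narrowest or most closely spaced, or at an edge. Further elements were named after their values were seen, to describe each stretch. The members and lists were chosen with earlier results of these data known. No statistical test was made, since the list holds no replicate values. A planned motif search was not run, because no sequence was used here. Placement, counting and joining were tested on simulated data. Python 3.11.15, NumPy 2.4.6, SciPy 1.17.1, pandas 2.3.3 and Matplotlib 3.10.9 were used.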

Additional observations from a re-analysis of the deposited data

How the results depend on the processing

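Of 68 recomputed values 51 stayed within the binomial interval of the main value (shares and medians) or within 1.5 times of it (counts, densities and ranks), among them all 8 with membership by any overlap with the window. Some of the 51 could not move. The limit for gene ends (500 bp or 2 kb) does not enter the distal class, which starts at 5 kb. Leaving out non-coding genes cannot change the count within 50 kb of irf2bp2. In a window of fixed length the density only repeats the count. The tally is therefore no measure of robustness. The share of distal elements was 65.1% in the core alone, 36.5% with a proximal limit of 10 kb and 63.5% with protein-coding genes only. Joining elements closer than 500 bp gave a median width of 382 bp, a median gap of 2011 bp and 35.1% of elements from 9 or more peaks. It left 6 elements closest to irf2bp2 and 33 within 50 kb of it (rank 225). With scores of at least 20, the median score was 70.6, elements from a single peak made up 8.47%, and the rank was 209. Joining adds up the peaks of a group, makes wider elements and removes every gap under 500 bp. The score limit removes the weakest elements, and score and merged peaks rise together. These shifts in width, gap, score and merged peaks therefore follow at least in part from the settings. Protein-coding genes only gave 35 elements closest to irf2bp2. Within 25 kb of irf2bp2 lay 32.5 elements (rank 10), and within 100 kb 85.5 (rank 138).

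No paired analysis was possible because the list pools all libraries. For the same reason leaving out single libraries was not possible. The depth behind a score, the stages at which an element was open and the spread between replicates are not known from it.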
